A study of Arabidopsis thaliana with 24 samples.

Results

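The genes of a helix-loop-helix growth switch were followed through a shade experiment in Arabidopsis thaliana: the 6 PACLOBUTRAZOL RESISTANCE genes PRE1 to PRE6 (AT5G39860, AT5G15160, AT1G74500, AT3G47710, AT3G28857 and AT1G26945), the 3 BR ENHANCED EXPRESSION genes BEE1 to BEE3 (AT1G18400, AT4G36540 and AT1G73830), and IBH1 (AT2G43060). They were taken by locus from the authors' FPKM table and are 10 of its 33020 rows. RNA came from whole seedlings aged 6 days of 4 genotypes, wild type (WT, Col-0), pif7, asf1ab and hira, all raised in white light. Each genotype was sampled in white light and after shading for 1 hr (red to far-red ratio 0.4), which makes 8 groups of 3 libraries, 24 in all. The labels do not give the mutant alleles, whether the lines are knockouts, or whether the 3 libraries of a group came from separate cultures, and the p-values therefore reflect no more than library-to-library spread, which may be technical. RefSeq lists PRE2 as BNQ2, PRE3 as BS1, PRE4 as BNQ3 and PRE6 as KDR.

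The proteins encoded by these genes form a chain of binding partners that sets cell elongation. PRE proteins are small helix-loop-helix proteins that do not bind DNA themselves. They bind IBH1, a helix-loop-helix inhibitor, and so keep it from holding DNA-binding bHLH activators such as HBI1 inactive. BEE1, BEE2 and BEE3 are DNA-binding bHLH factors of the same subfamily as HBI1, and were named for their early induction by brassinosteroid. Auxin, gibberellin, brassinosteroid and light signals all feed into PRE and IBH1 transcription in seedlings, where PIF7 is a phytochrome-interacting bHLH factor, and ASF1 and HIRA are chaperones of histones H3 and H4.

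The 300 bases before the annotated transcript start are given for PRE2, PRE6 and BEE1, which are among the genes whose response to shade differed from WT in a mutant, and for IBH1, for which no such difference was called. They were read from the RefSeq genome TAIR10.1 with its own annotation, and run 5′ to 3′ towards the start on the gene's strand. Capitals mark every E-box (CANNTG), the bHLH recognition core that includes the G-box CACGTG and the PBE-box CATGTG (with its reverse complement CACATG). The windows lie at chr5:4922813-4923112 (minus strand), chr1:9350860-9351159, chr1:6331098-6331397 and chr2:17908707-17909006 (plus strand), and none overlaps another annotated gene.
PRE2: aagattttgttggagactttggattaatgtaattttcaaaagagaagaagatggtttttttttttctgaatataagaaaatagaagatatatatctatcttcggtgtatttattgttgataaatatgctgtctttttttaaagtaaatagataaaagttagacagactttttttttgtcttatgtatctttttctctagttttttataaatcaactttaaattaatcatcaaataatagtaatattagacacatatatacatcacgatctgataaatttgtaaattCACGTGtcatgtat
PRE6: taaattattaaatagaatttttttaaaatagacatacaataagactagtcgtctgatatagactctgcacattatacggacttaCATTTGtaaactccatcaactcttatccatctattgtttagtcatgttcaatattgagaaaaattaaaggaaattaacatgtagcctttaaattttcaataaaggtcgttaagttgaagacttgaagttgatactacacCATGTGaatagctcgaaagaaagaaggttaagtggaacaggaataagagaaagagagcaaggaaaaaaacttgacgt
BEE1: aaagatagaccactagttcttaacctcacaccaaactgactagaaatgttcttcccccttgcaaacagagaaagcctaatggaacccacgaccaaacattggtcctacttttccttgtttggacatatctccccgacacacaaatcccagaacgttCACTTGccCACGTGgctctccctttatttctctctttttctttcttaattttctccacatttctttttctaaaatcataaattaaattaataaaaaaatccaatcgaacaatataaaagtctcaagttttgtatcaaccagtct
IBH1: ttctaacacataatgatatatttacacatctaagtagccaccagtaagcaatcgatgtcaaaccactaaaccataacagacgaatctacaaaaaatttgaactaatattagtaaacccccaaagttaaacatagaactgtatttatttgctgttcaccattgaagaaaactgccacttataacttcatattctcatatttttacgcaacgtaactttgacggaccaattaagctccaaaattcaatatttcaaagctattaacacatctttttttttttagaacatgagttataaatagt
PRE2 has a G-box that begins 14 bases before the start, and BEE1 has a G-box that begins 136 bases before it, next to a CACTTG E-box. A G-box stands in 7.09% of the windows of this length before all 27438 protein-coding genes, and among the 10 genes in these 2. PRE6 has a PBE-box 77 bases before the start; PBE-boxes stand in 3 of the 10 windows (PRE4, PRE6 and BEE2) and in 13.1% of all windows. No E-box is in the IBH1 and PRE5 windows, while 8 of the 10 hold an E-box, against 61.9% of all windows. PRE1, whose shade response also differed from WT in pif7, has neither a G-box nor a PBE-box in its window. A link between these motifs and the responses was not tested. Neither CGTGTG, the core of a brassinosteroid response element, nor the auxin response element TGTCTC, each searched on both strands, is in any of the 10 windows; they stand in 6.12% and 13.0% of all windows.

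Reads of 50 bases or more that match exactly can be told apart between the 10 genes. The read length and reads with mismatches were not considered. Coding sequences are most alike between PRE1 and PRE5 (84.6% identity over 279 aligned bases) and between BEE1 and BEE3 (81.4% over 730 bases), but the longest run of identical bases in their transcripts is 20 bases for the first pair and 30 for the second. No 50-base stretch of any of the 10 transcripts occurs elsewhere in the genome, and no annotated gene overlaps any of them.

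FPKM sums ranged from 778266 to 893997 per library, and depth read from the spacing of low values was 13340000 to 18240000 reads, so that 1 FPKM stands for about 10.5 to 14.4 reads of PRE2 and 20.6 to 28.1 of BEE1. Ribosomal RNA took 8.32, 7.27 and 3.22% of the summed FPKM in replicates 1, 2 and 3 of white-light hira and 0.724 to 2.92% in the other 21 libraries. PIF7 was lower in pif7 by -3.78 ± 0.141 log2, and ASF1B in asf1ab by -1.87 ± 0.118, in white light (limma, adjusted p = 2.56e-12 and 3.67e-09). In asf1ab, ASF1A was at -0.40 ± 0.098 log2 relative to WT in white light (adjusted p = 0.00642) and 0.21 ± 0.098 against WT in shade (adjusted p = 0.135), and HIRA did not pass the test in hira (-0.26 ± 0.091, adjusted p = 0.0664 in white light), so those labels are only weakly checked by transcript level. Leaf markers were abundant in every library (RBCS1A, LHCB3 and RCA summed to 17939 FPKM or more), while of 7 root markers RHD6, COBL9, PLT1 and WOX5 never passed 0.58 FPKM. The other root markers were expressed. Their group means were 12.4 to 20.9 FPKM for SCR, 5.58 to 15.1 for AT5G43350 and 4.64 to 8.59 for SHR. The 6 seed maturation markers summed to 64.4 to 347.8 FPKM in the 6 asf1ab libraries and to 0.85 to 9.99 in the 6 of WT. In pif7 they summed to 1.60 to 8.35 in white light and 27.1 to 30.5 in shade, and in hira to 9.48 to 17.8 and 22.5 to 42.0. These sums in shade came mostly from EM6 and CRA1, with means of 19.0 and 9.31 FPKM in pif7 and 23.9 and 4.84 in hira. The other seed markers had means of 0.517 FPKM or less in shaded pif7 and 1.23 or less in shaded hira. EM6 also went from 2.21 to 7.71 FPKM in WT. The part of the 6 seed markers in the results for the mutants was not tested. In a sample of whole seedlings, fewer cells of a type and less RNA per cell cannot be told apart.

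Changes are differences of log2(FPKM + 1) ± standard error. They come from 1 limma fit across 19126 genes, those averaging 1 FPKM or more, and a call is an adjusted p below 0.05. The added 1 makes changes of weakly expressed genes too small. Of the 10 genes, 7 passed this filter. PRE3, PRE4 and PRE5, with means of 0.493, 0.0871 and 0.918 FPKM over the 24 libraries, did not.

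**Figure D1:**
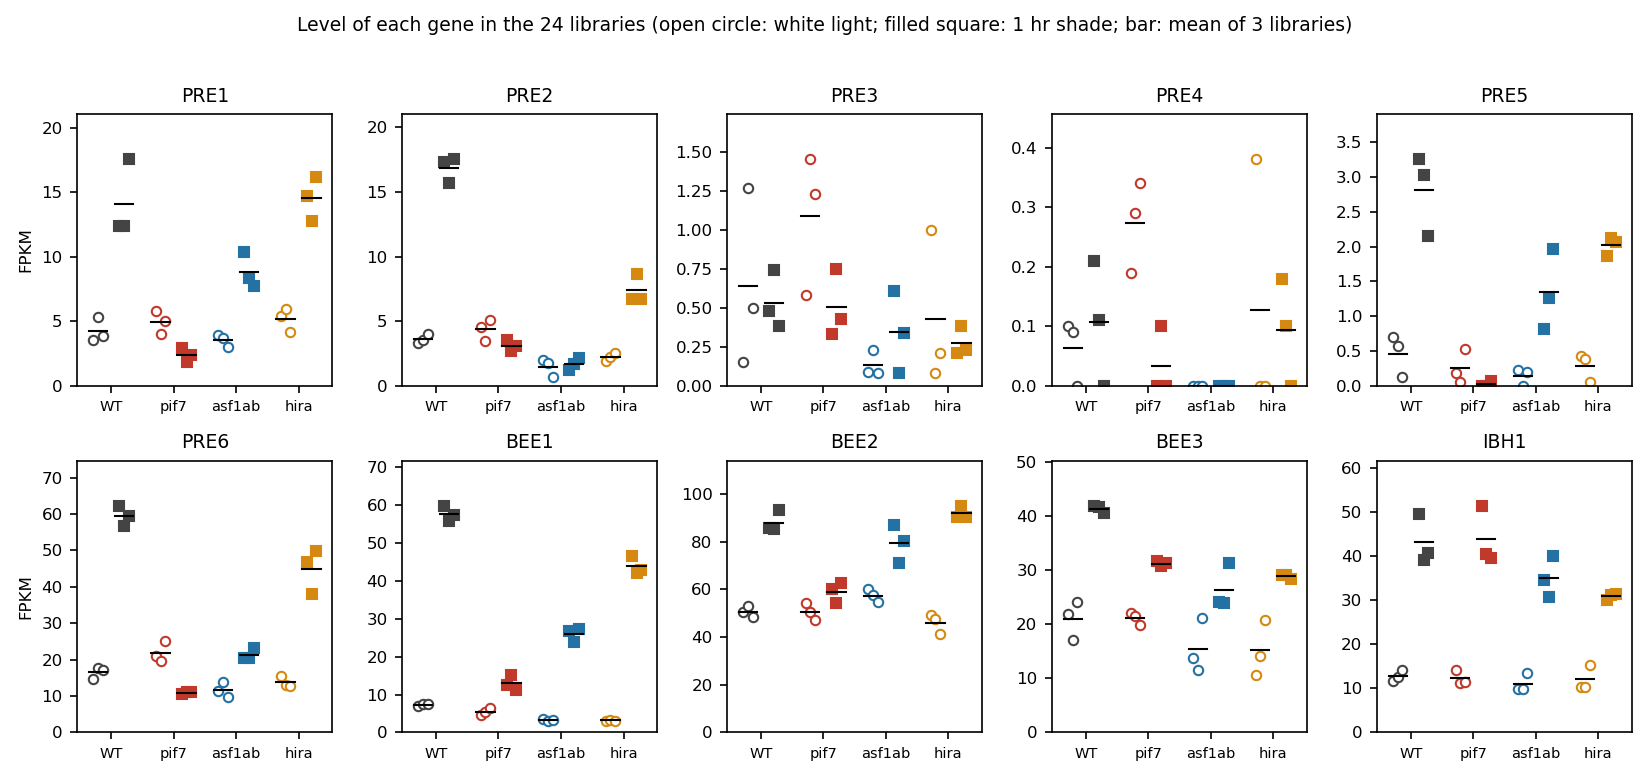
FPKM of each of the 10 genes (vertical axes, each from 0 and scaled to its own gene) in the 24 libraries, by genotype; open circles are white light, filled squares 1 hr shade and bars the mean of 3 libraries. PRE1, PRE5, PRE6 and BEE1 show high squares in WT and hira and low ones in pif7, PRE2 is low in both lights in asf1ab, and IBH1 squares lie at 30.16 FPKM or more in every genotype.

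What did 1 hr of shade do to these genes in WT? All 7 tested genes rose, where 14.9% of the genes tested were called higher; their median change was 1.68 log2 against 0.01 over all genes tested. PRE6, the most abundant PRE gene, read 14.67, 17.65 and 17.27 FPKM in replicates 1 to 3 in white light and 62.2, 56.63 and 59.4 in shade. The groups stood far apart, a rise of 1.79 ± 0.120 log2 (limma, adjusted p = 1.16e-09). PRE2 rose from 3.34, 3.56 and 3.98 to 17.34, 15.71 and 17.52 FPKM, by 1.95 ± 0.182 (adjusted p = 1.16e-07). PRE1, a gene first described through gibberellin responses, read 3.52, 5.35 and 3.86 FPKM in white light and 12.35, 12.41 and 17.53 in shade. Its rise was 1.52 ± 0.171 (adjusted p = 1.26e-06), and replicate 3 in shade stood above the other two.

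The weakly expressed PRE genes differed among themselves. PRE5, the closest relative of PRE1 in sequence, read 0.7, 0.57 and 0.12 FPKM in white-light WT and 3.25, 3.02 and 2.15 in shade, so the groups did not overlap. In a fit without the filter PRE5 rose by 1.39 ± 0.185 (adjusted p = 2.11e-05). PRE3, known as a target of the auxin response factor MONOPTEROS in the embryo root, read 0.15 to 1.27 FPKM in white light and 0.38 to 0.74 in shade, with overlapping libraries. PRE4 was listed at 0 in 13 of the 24 libraries and nowhere exceeded 0.38 FPKM, a value of a few reads. In every library PRE6 made up 60.3 to 71.1% of the summed FPKM of the 6 PRE genes.

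Among the BEE genes the rise was steepest for BEE1 and shallow for the abundant BEE2. BEE1 went from 6.87, 7.47 and 7.56 to 59.77, 55.84 and 57.41 FPKM in WT, a 7.90-fold ratio of the means and 2.82 ± 0.101 log2 (limma, adjusted p = 1.09e-13). BEE2, at 50.6 ± 2.19 FPKM in white light (mean ± SD, n = 3), reached 87.9 ± 4.55 in shade (0.79 ± 0.084 log2), and BEE3 went from 21.0 ± 3.64 to 41.4 ± 0.709 (0.96 ± 0.191 log2). Libraries of the light conditions did not overlap for any of the 3 genes, where 22.0% of the genes tested had every shaded WT library above every white-light one. The inhibitor gene IBH1 rose as well, from 11.73, 12.47 and 14.14 FPKM to 49.55, 39.21 and 40.63, by 1.68 ± 0.152 log2 (adjusted p = 8.31e-08). Its 3.37-fold ratio of means lay close to the 3.32 of PRE1 and the 3.59 of PRE6.

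**Figure D2:**
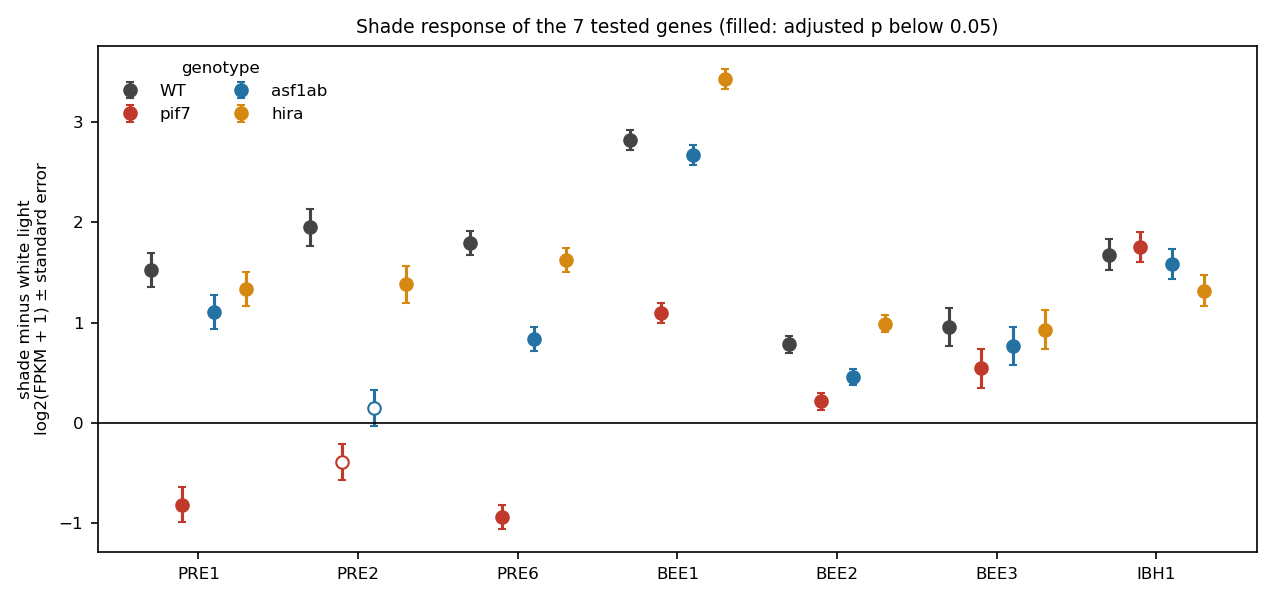
Shade minus white light on the log2(FPKM + 1) scale (vertical axis, ± standard error) for the 7 tested genes in the 4 genotypes; filled points have a limma adjusted p below 0.05. In pif7 the points of PRE1 and PRE6 lie below 0, at -0.81 and -0.94, while that of IBH1 lies at 1.75, beside 1.68 in WT.

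In pif7, PRE1 and PRE6 went down in shade while IBH1 went up. PRE6 read 21.14, 19.59 and 25.12 FPKM in white-light pif7 and 10.56, 10.99 and 11.15 in shade, so every shaded library was below every white-light library. This fall was -0.94 ± 0.120 log2 (limma, adjusted p = 6.19e-06). PRE1 fell likewise, from 5.76, 3.99 and 5.02 to 2.89, 1.82 and 2.41 FPKM (-0.81 ± 0.171, adjusted p = 0.000928). PRE2 read 4.57, 3.5 and 5.08 FPKM in white light and 3.52, 2.67 and 3.08 in shade (-0.39 ± 0.182, adjusted p = 0.0897), which passes the test only after rescaling by the median of ratios (-0.50, adjusted p = 0.0348) or with an added 5 in place of 1. PRE5 was listed at 0, 0 and 0.07 FPKM in shaded pif7, against at least 2.15 in shaded WT. PRE4 was the third gene whose shaded pif7 libraries all lay below the white-light ones, as did those of 3450 of the 19126 genes tested, at 0.34 FPKM or less throughout (-0.30 ± 0.099 in the fit without the filter, adjusted p = 0.0266).

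IBH1 rose in pif7 too, with 14.23, 11.11 and 11.49 FPKM in white-light pif7 and 51.37, 40.57 and 39.56 in shade, or 1.75 ± 0.152 log2 (limma, adjusted p = 6.61e-08). BEE1 rose less, from 4.68, 5.43 and 6.44 to 12.54, 15.11 and 11.12 FPKM (1.09 ± 0.101, adjusted p = 1.44e-07). BEE3 (0.54 ± 0.191, adjusted p = 0.0281) and BEE2 (0.21 ± 0.084, adjusted p = 0.0471) passed the test narrowly. Rescaling ended both calls (adjusted p = 0.102 and 0.618), as did leaving out any 1 of the 6 pif7 libraries for BEE3, and W_pif7 replicate 2 or 3 or S_pif7 replicate 1 or 3 for BEE2 (adjusted p = 0.0516 to 0.0717 and 0.0917 to 0.169). Quantile normalization also ended both calls (limma, adjusted p = 0.0992 for BEE3 and 0.463 for BEE2). The BEE2 call was lost as well without the variance trend (limma, adjusted p = 0.0534) and in a fit of these groups alone (adjusted p = 0.0942). In all, 4 of the 7 rose and 2 fell, where 29.9% of the genes tested were called higher and 13.6% lower. The whole distribution moved up by a median of 0.12 log2 in this comparison; after rescaling, 3423 genes were called higher and 3682 lower in place of 5715 and 2597, and 2 of the 7 rose and 3 fell. The 3 leaf markers were also called lower in shaded pif7, at a sum of 17939 to 19766 FPKM against 24113 to 29521 in white light, and whether this bears on the PRE genes was not tested.

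The test of the difference itself separated the genes. The shade response in pif7 was smaller than in WT for 5 of the 7, where 2.98% of the genes tested were called lower (598 higher and 569 lower, or 289 and 753 after rescaling, since the median moved by 0.11 log2). The same 5 genes were called after rescaling. PRE6 differed by -2.73 ± 0.169 log2 (limma, adjusted p = 2.50e-09), PRE2 by -2.34 ± 0.257, PRE1 by -2.34 ± 0.242, BEE1 by -1.73 ± 0.143 and BEE2 by -0.57 ± 0.119 (adjusted p = 0.00804). PRE5 differed by -1.67 ± 0.262 in the fit without the filter (adjusted p = 0.00101). BEE3 at -0.42 ± 0.271 and IBH1 at 0.08 ± 0.215 did not pass (adjusted p = 0.355 and 0.856), and the IBH1 difference takes the other sign after rescaling (-0.04). In white light limma called none of the 7 different between pif7 and WT, with 2 at an unadjusted p below 0.05, where 0.397% of the genes tested were called. These 2 were PRE6, at 22.0 ± 2.85 FPKM against 16.5 ± 1.62 (adjusted p = 0.278), and BEE1, at 5.52 ± 0.883 against 7.30 ± 0.375 (adjusted p = 0.206). In shade 5 of the 7 were lower in pif7 than in WT (PRE1, PRE2, PRE6, BEE1 and BEE2, by -0.57 to -2.34 log2), where 6.31% of the genes tested were.

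In asf1ab, PRE2 stood apart from the other genes. It read 1.96, 1.79 and 0.66 FPKM in white light and 1.19, 1.71 and 2.14 in shade, overlapping groups at levels that few reads support. The change was 0.15 ± 0.182 log2 (limma, adjusted p = 0.592), and without W_asf1ab replicate 3 it turns to -0.12. Against WT its response was smaller by -1.80 ± 0.257 (adjusted p = 0.00302), and its level was lower in both white light (-0.95 ± 0.182, adjusted p = 0.000959) and shade (-2.75 ± 0.182, adjusted p = 3.69e-09). PRE6 kept part of its rise, from 11.42, 13.76 and 9.73 to 20.39, 20.58 and 23.26 FPKM (0.84 ± 0.120, adjusted p = 1.93e-05). Its response was smaller than in WT by -0.95 ± 0.169 (adjusted p = 0.0133, or 0.0517 in a fit of the 4 groups alone).

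PRE1, PRE5, the BEE genes and IBH1 also rose in asf1ab, while PRE3 libraries overlapped and PRE4 was listed at 0 throughout. PRE1 rose from 3.97, 3.69 and 3.01 to 10.37, 8.31 and 7.75 FPKM (1.10 ± 0.171), and PRE5 from 0.23, 0 and 0.2 to 0.81, 1.26 and 1.96 (1.01 ± 0.185 in the fit without the filter, limma adjusted p = 0.000454). BEE1 rose from a lower start, 3.57, 2.96 and 3.2 FPKM, to 26.85, 23.84 and 27.35. Its 8.02-fold ratio of means is near the 7.90 of WT, and the difference in response was -0.15 ± 0.143 (adjusted p = 0.845). With 0.1 added in place of 1 this log2 difference is 0.0013, also not called. BEE1 was lower than in WT in white light (-0.97 ± 0.101, adjusted p = 1.47e-06) and in shade (-1.12 ± 0.101, adjusted p = 1.87e-07). IBH1 rose from 9.93, 9.82 and 13.49 to 34.69, 30.63 and 39.96 FPKM (1.58 ± 0.152, adjusted p = 1.21e-07), BEE2 by 0.46 ± 0.084 and BEE3 by 0.77 ± 0.191 (adjusted p = 0.00417, or 0.0575 in a fit of these groups alone).

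By count, 6 of the 7 rose in shaded asf1ab, where 18.8% of the genes tested were called higher (3601 higher and 2343 lower, or 2974 and 2930 after rescaling). The response of 2 of the 7, PRE2 and PRE6, was smaller than in WT, where 0.288% were called lower. Against WT in white light 3 of the 7 (PRE2, PRE6 and BEE1) were lower, where 15.8% of the genes tested were (1197 higher and 3028 lower, or 1846 and 2314 after rescaling). The PRE6 call in white light (-0.48 ± 0.120, adjusted p = 0.00714) is lost in a fit of these groups alone (adjusted p = 0.0757). In shade 5 of the 7 were lower, again where 15.8% were. Besides PRE2, BEE1 and PRE6 (-1.43 ± 0.120), these are PRE1 (-0.61 ± 0.171, limma adjusted p = 0.0126) and BEE3 (-0.64 ± 0.191, adjusted p = 0.0196). The PRE1 call is lost without S_WT replicate 3 (adjusted p = 0.0870), and the BEE3 call without S_WT replicate 1, S_asf1ab replicate 1 or S_asf1ab replicate 2 (adjusted p = 0.0551 to 0.0778).

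In hira all 7 tested genes rose in shade, where 26% of the genes tested were called higher and the median of all genes moved up by 0.14 log2 (4980 higher and 1827 lower, or 2702 and 2843 after rescaling). PRE6 read 15.63, 13.13 and 12.85 FPKM in white light and 46.81, 38.03 and 49.85 in shade (1.62 ± 0.120, limma adjusted p = 4.29e-09). PRE1 reached 14.67, 12.75 and 16.21 FPKM, a range that overlaps shaded WT. PRE2 reached 6.7, 8.69 and 6.75 FPKM from 1.88, 2.22 and 2.54 in white light (1.38 ± 0.182), and was lower than in shaded WT by -1.10 ± 0.182 (adjusted p = 0.000650). PRE5 read 0.43, 0.38 and 0.06 FPKM in white light and 1.86, 2.12 and 2.07 in shade.

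BEE1 began low in hira, at 3.04, 3.38 and 3.08 FPKM in white light, below every white-light WT library (-0.99 ± 0.101, limma adjusted p = 3.20e-06), and reached 46.71, 42.22 and 42.78 in shade. Its rise of 3.43 ± 0.101 log2, 13.9-fold by means, exceeded that of WT by 0.61 ± 0.143 (adjusted p = 0.0415). BEE1 was the 1 called gene of the 7 in that difference, where 0.607% of the genes tested were called higher (116 higher and 131 lower, or 55 and 208 after rescaling, against a median that moved by 0.11 log2). With 5 added in place of 1 the difference is 0.23 and no longer called (adjusted p = 0.237), and PRE2 is called instead (-0.56, adjusted p = 0.0212). The BEE1 call does not hold after rescaling either (0.50, adjusted p = 0.0803), with the replicate block (adjusted p = 0.0565), without the filter (adjusted p = 0.0559), without W_hira replicates 1 and 2 together (0.64, adjusted p = 0.189), or in 11 of the 12 fits that each leave out a library of these groups (adjusted p = 0.0591 to 0.123); without W_hira replicate 3 it holds. IBH1 rose from 10.35, 10.39 and 15.36 to 30.16, 31.29 and 31.5 FPKM (1.32 ± 0.152), BEE2 by 0.99 ± 0.084 and BEE3 by 0.93 ± 0.191; without W_hira replicates 1 and 2 the BEE3 rise is 0.46 (adjusted p = 0.166). Against WT, 1 of the 7 (BEE1) was lower in white light, where 9.03% of the genes tested were (500 higher and 1728 lower, or 754 and 667 after rescaling, against a median that moved by -0.12 log2); without W_hira replicate 3 it is 3 of the 7. In shade 3 of the 7 were lower, where 6.59% were: PRE2, and PRE6 (-0.40 ± 0.120, adjusted p = 0.0351) and BEE1 (-0.39 ± 0.101, adjusted p = 0.0183). The PRE6 call is lost without any 1 of S_WT replicate 1, 2 or 3 or S_hira replicate 1 or 2 (adjusted p = 0.0541 to 0.158), and the BEE1 call without S_WT replicate 1 or 3 or S_hira replicate 2 or 3 (adjusted p = 0.0527 to 0.0744).

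The mutants asf1ab and hira were also set against each other, a comparison added after their values were seen. The shade response of PRE2 was -1.23 ± 0.257 log2 smaller in asf1ab than in hira (limma, adjusted p = 0.0891) and that of BEE1 -0.76 ± 0.143 (adjusted p = 0.0509). By limma none of the 7 was called, with 4 at an unadjusted p below 0.05, where 0.068% of the genes tested were called (5 higher and 8 lower, or 12 and 2 after rescaling). Levels were not tested between these mutants. Shaded means in asf1ab and hira were 8.81 and 14.5 FPKM for PRE1, 1.68 and 7.38 for PRE2, and 21.4 and 44.9 for PRE6. For the BEE genes they were 26.0 and 43.9 (BEE1), 79.3 and 91.8 (BEE2), and 26.5 and 28.9 (BEE3). IBH1 means were 35.1 and 31.0 FPKM.

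Across the 8 groups BEE1 levels fell in the order shaded WT, shaded hira, shaded asf1ab, shaded pif7, white-light WT, white-light pif7, and last asf1ab and hira in white light. Of these neighbours only the last pair overlap in their libraries. For PRE6 the order was shaded WT, shaded hira, white-light pif7, shaded asf1ab, white-light WT, white-light hira, white-light asf1ab and shaded pif7. From white-light pif7 downwards, neighbours overlap except shaded asf1ab and white-light WT. IBH1 had all 12 shaded libraries, at 30.16 to 51.37 FPKM, above all 12 white-light libraries, at 9.82 to 15.36, and its 4 white-light groups overlap one another. Within single genotypes, 22.0% (WT) to 34.3% (pif7) of the genes tested had every shaded library above every white-light one. How many genes separate so over all 4 genotypes, or between neighbouring groups as BEE1 does, was not counted.

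In shade the summed PRE level stood lower against IBH1 in pif7 and asf1ab than in WT and hira, as a plot of each library shows. In WT the summed FPKM of the 6 PRE genes was 1.92, 2.28 and 1.82 times that of IBH1 in white light and 1.93, 2.26 and 2.39 times in shade, overlapping ranges. In hira the ratios were 2.39, 2.10 and 1.29 in white light and 2.34, 1.98 and 2.38 in shade. In pif7 the ratio went from 2.28, 2.60 and 3.25 to 0.337, 0.403 and 0.433, with every shaded library far below. In asf1ab it went from 1.78, 1.98 and 1.01 to 0.962, 1.04 and 0.887, where W_asf1ab replicate 3 lies within the range of the shaded libraries. FPKM is per length, so the levels can be summed, but a transcript ratio says nothing of protein, and the ratio is given as a description with no test.

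**Figure D3:**
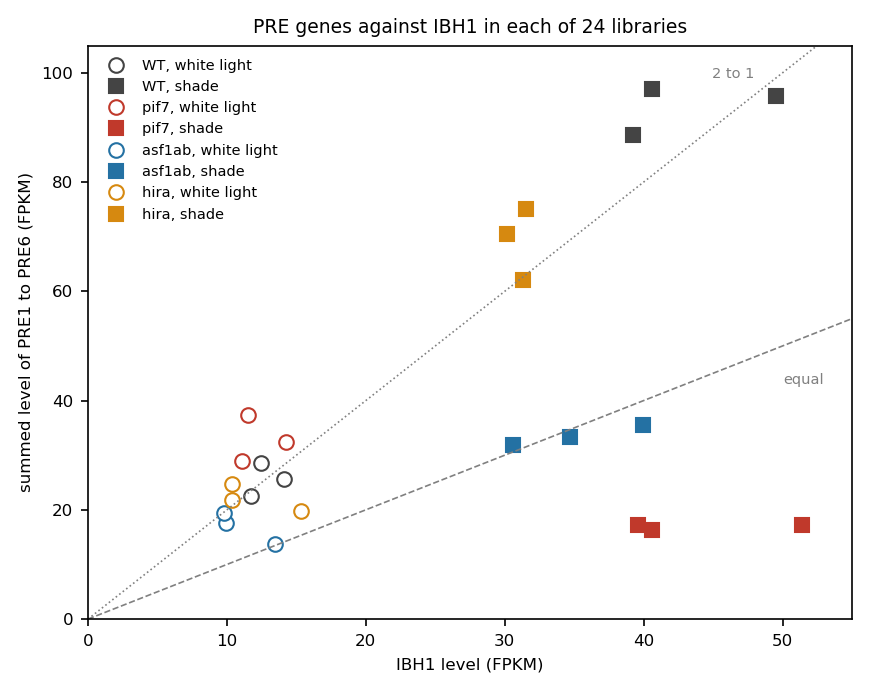
Summed FPKM of PRE1 to PRE6 (vertical axis) against IBH1 FPKM (horizontal axis) in each of the 24 libraries; open circles are white light, filled squares shade, and the lines mark equal levels and a ratio of 2 to 1. Shaded WT and hira libraries lie near the 2 to 1 line, shaded asf1ab near the line of equal levels (ratios of 0.887 to 1.04) and shaded pif7 below it (0.337 to 0.433).

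Other genes of the same chain were followed through lists chosen with earlier results of these data known. Of the 11 bHLH relatives and partners of HBI1, 10 were tested; in WT 5 rose and 1 fell (median 0.19 log2, against 0.01 over all genes tested), where 14.9% of the genes tested rose and 11.4% fell. HBI1 itself, the activator that IBH1 binds, rose from 49.6 ± 2.24 to 102 ± 0.648 FPKM (1.03 ± 0.094 log2, limma adjusted p = 8.60e-08) and CIB1, a cryptochrome-interacting bHLH gene, by 1.12 ± 0.233. HBI1 also rose in pif7 (0.81 ± 0.094), asf1ab (0.68 ± 0.094) and hira (1.16 ± 0.094), and for none of the 10 did limma call a different response from WT in any mutant, with 2 at an unadjusted p below 0.05 in pif7, 1 in asf1ab and 0 in hira. HBI1 was higher in asf1ab than in WT in white light, at 78.6 ± 8.87 FPKM (0.65 ± 0.094, adjusted p = 6.57e-05), and CIB5 was lower in white-light asf1ab (-1.12 ± 0.156) and hira (-1.22 ± 0.156).

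Of 9 genes for inhibitory helix-loop-helix proteins 8 were tested, and 7 rose and 1 fell in WT (median 1.03 log2), where 14.9% of the genes tested rose and 11.4% fell: HFR1 by 3.60 ± 0.130, PAR1 by 3.13 ± 0.121, and the IBH1 relatives AIF3 by 1.48 ± 0.071 and AIF4 by 1.38 ± 0.121, while AIF1 fell by 0.67 on the log2 scale (± 0.233, limma adjusted p = 0.0407). In pif7 6 of the 8 rose and none was called lower (median 0.63), where 29.9% of the genes tested rose and 13.6% fell; after rescaling 4 of the 8 rose. The response there was smaller than in WT for 3 of the 8, where 2.98% of the genes tested were called lower: AIF4 (-0.95 ± 0.171), PAR1 (-0.79 ± 0.171) and AIF3 (-0.41 ± 0.101). In asf1ab 6 rose and AIF1 fell, where 18.8% rose and 12.3% fell, and PAR1 rose by more than in WT (0.83 ± 0.171, adjusted p = 0.0332), a call lost after rescaling. In hira 6 rose and AIF1 fell, where 26% rose and 9.55% fell, and limma called no difference from WT, with 2 of the 8 at an unadjusted p below 0.05.

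Among 14 upstream regulators, 7 rose and 5 fell in WT (median 0.25 log2), where 14.9% of the genes tested rose and 11.4% fell. The brassinosteroid receptor gene BRI1 rose by 1.64 ± 0.107 and the DELLA gene GAI by 1.72 ± 0.170, while PIF7 fell by 1.09 on the log2 scale (± 0.141) and PIF4 rose by 0.63 ± 0.157. In pif7 the responses of BRI1 (-0.71 ± 0.151), PIF4 (-0.89 ± 0.222) and PIF5 (-0.68 ± 0.160) differed from WT in the negative direction, where 2.98% of the genes tested did. From white light to shade, mean PIF4 went from 24.8 to 39.0 FPKM in WT and from 32.5 to 27.1 in pif7. For PIF5 these means were 43.9 and 63.5 in WT, and 57.9 and 51.9 in pif7. Another 2 genes differed in the positive direction, where 3.13% of the genes tested did. For PIF7 itself this difference (0.76 ± 0.200) is a smaller fall, from 1.11 to 0.653 FPKM in pif7 against 27.4 to 12.4 in WT, at levels near the added 1. In asf1ab none of the 14 differed from WT in response by limma, with 2 at an unadjusted p below 0.05. There 0.173% of the genes tested were called higher and 0.288% lower. In hira 1 of the 14 differed, PIF4 (-0.92 ± 0.222), where 0.685% of the genes tested were called lower.

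Of 6 growth outputs, EXPA8 and EXPA1 encode wall-loosening expansins and are known HBI1 targets. EXPA8 read 77.4 ± 4.73 FPKM in white-light WT and 111 ± 12.7 in shade (0.51 ± 0.201 log2, limma adjusted p = 0.0675). It fell in pif7, from 79.9 ± 16.1 to 44.4 ± 5.88 FPKM (-0.82 ± 0.201), and in asf1ab, from 77.0 ± 9.51 to 35.3 ± 13.4 (-1.17 ± 0.201). In hira it read 92.4 ± 11.3 and 89.1 ± 8.30 FPKM. The response of EXPA8 was smaller than in WT in pif7 (-1.33 ± 0.284, adjusted p = 0.00928) and asf1ab (-1.68 ± 0.284, adjusted p = 0.00875). EXPA1 fell in all 4 genotypes, by more in asf1ab than in WT (-1.05 ± 0.163). The auxin-induced genes IAA19 and SAUR15 rose in WT by 4.68 ± 0.274 and 2.19 ± 0.211, and in pif7 responded less by -3.98 ± 0.388 and -2.96 ± 0.298. XTH22 rose in all 4 genotypes. Its white-light and shaded means were 18.6 and 192 FPKM in WT, and 18.7 and 130 in pif7. In asf1ab they were 32.7 and 278 FPKM, and in hira 46.3 and 229. In WT 3 of the 6 rose and 1 fell, where 14.9% of the genes tested rose and 11.4% fell. In pif7 2 rose (1 after rescaling) and 4 fell, among them EXPA4 and SAUR15, where 29.9% rose and 13.6% fell.

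The genes whose log2(FPKM + 1) over the 24 libraries was most like that of each tested gene were listed as a description; the libraries are shared, so r carries no p. PRE6 was most like GA20OX1, a gibberellin synthesis gene (r = 0.954), GT18 (0.931) and the potassium channel gene KAT1 (0.929). PRE2 was most like SAUR9 (0.956), MAKR4 (0.939) and AT3G08640 (0.880), and PRE1 like AT5G41400 (0.947), AT3G50340 (0.945) and the auxin synthesis gene YUC2 (0.941). For BEE1 these were AT3G17090 (0.982), AT1G29460 (SAUR65, 0.982) and AT4G34770 (SAUR1, 0.981). For BEE2 they were AT1G29500 (SAUR66, 0.961), AT1G29450 (SAUR64, 0.961) and AT5G54630 (0.960). BEE3 was most like AT1G75490 (0.948), EBF2 (0.925) and AT2G04305 (0.919), and IBH1 like the kinase gene STY46 (0.977), AT5G57655 (0.976) and AT3G10030 (0.975). Among the 7 genes themselves the closest pairs were PRE1 with PRE6 (r = 0.910), BEE1 with BEE2 (0.907) and BEE3 with IBH1 (0.871), and the least alike were PRE1 with IBH1 (0.411) and PRE1 with BEE3 (0.416).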

How the data were processed

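RNA sequencing of 24 libraries was analysed from the single table of FPKM values that the authors deposited, written to 2 decimals. Per the submitters' processing notes, FastQC, cutadapt, STAR, HTSeq and DESeq2 were used with the TAIR10 genome; for their versions, and for how FPKM was made, the sources used here give nothing. Groups came from the sample titles. Values were transformed to log2(FPKM + 1) and fitted in limma 3.58.1 (R 4.3.3) with 8 group means and variances moderated with an intensity trend; p-values are two-sided and were adjusted by Benjamini-Hochberg over the 19126 genes averaging 1 FPKM or more, with calls below 0.05. The fit was also run on simulated normal values, a simpler setting than these data, and no result given here rests on it. Genes named are the 10 studied, those naming the mutants, the called members of each related list with the largest changes, at most 4 per comparison,, and the 3 genes most like each tested gene; AIF1 in WT, and levels of EXPA8 in WT and hira, are given beyond this and were chosen after their values were seen. Members and lists were chosen with earlier results of these data known. Depth was read from the spacing of FPKM values of 6 reads or fewer in genes no longer than 900 exonic bases. Of those values, 40.4 to 46.1% lie within 0.15 of a whole number of reads, so depth is approximate. It was set where values lay closest to whole numbers of reads, so this share is no separate check on it. Gene models, windows before the start and identities came from RefSeq TAIR10.1 (Biopython 1.88, Python 3.11.15); table values carry no coordinates. Libraries with the same replicate number did not deviate together in every pair (r of -0.11 to 0.22), so the numbers were not taken as pairs. Within groups, libraries correlated at r = 0.951 to 0.982, and none were identical.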

Additional observations from a re-analysis of the deposited data

Results flagged for a closer look

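The shade response of 5 genes differed between pif7 and WT by a test of the difference itself (limma, log2 scale): PRE1 by -2.34, PRE2 by -2.34, PRE6 by -2.73, BEE1 by -1.73 and BEE2 by -0.57. In asf1ab the responses of PRE2 and PRE6 differed from those of WT by -1.80 and -0.95. In hira the BEE1 response differed from that of WT by 0.61, a call that most alternatives end.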

How the results depend on the processing

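The number of the 7 genes called was recomputed in 13 comparisons under 10 planned or added alternatives and with each library left out. With only the groups compared, calls for the response difference of asf1ab fell from 2 to 1, and those for hira against WT in shade rose from 3 to 5. The response difference of hira went from 1 call to 0 after rescaling, with no filter, with the replicate block, and without both white-light hira libraries of high ribosomal RNA (added after seeing the data). With 5 added in place of 1 it kept 1 call, but of PRE2 in place of BEE1. The replicate block moved no other count of calls by over 1.5 times. With 1 library left out, calls ranged from 0 to 1 for that difference, 1 to 3 for hira against WT in white light and 1 to 2 for hira against WT in shade. Signs turned only for changes that had not passed the test: IBH1 in the pif7 difference (-0.039 rescaled, -0.011 with quantile normalization, -0.039 to 0.18 with 1 library left out), BEE1 in the asf1ab difference (0.0013 with 0.1 added), PRE1 in the hira difference (0.055 without both hira libraries), and with 1 library left out PRE2 in shaded asf1ab (-0.12 to 0.30), BEE3 and IBH1 in the asf1ab difference (-0.37 to 0.046 and -0.19 to 0.047) and BEE3 in the hira difference (-0.24 to 0.21). The cause was not tested. The weak depth estimate limits what can be read from genes below 1 FPKM.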
